A study of Mus musculus with 2 samples.

Results

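The genes described here serve the endoplasmic reticulum (ER): its chaperones, disulfide isomerases, translocation channel, oligosaccharyltransferase, degradation machinery and stress sensors. They were followed in mouse embryonic stem cells of the line E14tg2a. A fixed list of 50 genes in 6 classes was used. Of these, 48 had at least 1 probe set (a group of probes on the array read as 1 value) naming that gene alone, out of 12393 such genes in all, and they carried 106 probe sets. Hspa13 and Sec61g had no such probe set and are not analysed here.

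The shDAB2 group was clone 4 of cells stably carrying a plasmid for a short hairpin RNA against Dab2, an adaptor gene of clathrin-mediated endocytosis. The vector group was clone 9 of cells carrying the control plasmid. Both clones grew in GMEM medium with 10% fetal bovine serum, glutamine, penicillin, streptomycin and 1000 U/ml of leukaemia inhibitory factor, with no further treatment. Each group is 1 clone on 1 Affymetrix 430A array, so there is no spread between replicates, no test and no p-value. The hairpin, the clone and the culture cannot be told apart as sources of a difference, and in bulk RNA fewer cells of a type cannot be told apart from less RNA per cell.

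Proteins destined for secretion or for membranes enter the ER through the Sec61 channel, receive N-linked glycans from the oligosaccharyltransferase and fold with the help of chaperones and disulfide isomerases. Chains that fail to fold are moved back to the cytosol and degraded by the proteasome. When unfolded proteins accumulate, the sensors IRE1 (gene Ern1), ATF6 and PERK start the unfolded protein response, which raises transcription of chaperone and degradation genes and slows translation.

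All levels are log2 values made with RMA, and every difference is the level with the hairpin (shDAB2 clone) minus the level with the vector (vector clone). A gene is represented by its brightest probe set, and it passed the floor if either array read at least 6.62, the median over all probe-set values. This was so for 7269 genes, 46 of the 48 ER genes among them, while Dnajc1 and Dnajc3 stayed below. Over these 7269 genes the median difference was 0.0006 and the SD 0.22. Probe sets of 1 gene gave the only repeat measurement, with an SD of 0.11 for 1 probe set over 2502 genes. They read the same RNA on the same arrays. This SD therefore covers probe noise and transcript variants, and not the spread between clones, cultures or arrays. Dab2 itself read 6.33 with the hairpin and 6.64 with the vector, so it passed the floor only just and only with the vector. Its other probe sets, below the floor on both arrays, differed by -0.051 and -0.011. At such levels the size of the knockdown cannot be judged from these arrays.

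Markers of undifferentiated stem cells were present on both arrays. All 10 listed markers passed the floor, with a mean level of 9.56 with the hairpin and 9.46 with the vector. Endoderm markers, of cells known for heavy secretion, passed in 9 of 21 cases, with mean levels of 7.25 and 7.40. Gata4, Gata6 and Sox17 lay below the floor. Of those that passed, 3 were higher and 6 lower with the hairpin, with a median of -0.17. Sparc read 9.18 with the hairpin and 9.58 with the vector, Col4a2 differed by -0.36 and Col4a1 by -0.29. Trophectoderm markers passed in 5 of 10 cases, with mean levels of 8.15 and 8.82, and Cdx2, Eomes and Elf5 lay below the floor. All 5 that passed were lower with the hairpin, with a median of -0.72: Krt18 by -1.32, Krt7 by -0.82, Krt8 by -0.72, Tfap2c by -0.47 and Hand1 by -0.024. Feeder fibroblast markers passed in 2 of 10 cases, with Col1a1 and Col1a2 below the floor. Acta2 passed at 8.36 with the hairpin and 8.49 with the vector, and Dcn only just, at 6.62 and 6.55. The part of these markers in the ER differences was not tested.

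Of the 46 ER genes that passed, 31 were higher in the shDAB2 clone and 15 lower, beside 50% of all genes higher. Sizes were counted at a smaller limit of 0.3219 and a larger one of 0.58 on the log2 scale, the larger being 1.5-fold. Past the smaller limit 7 ER genes were higher, which 4.91% of all genes were, and 0 were lower, against 6.07% of all genes. The ER genes were brighter, with a mean vector level of 8.02 beside 7.62 for all genes. With the floor raised to the 75th percentile, 7 of 32 ER genes were higher and 0 lower past this limit. The shares of all genes were then 8.29% and 9.87%. Past the larger limit 3 ER genes were higher and 0 lower, where the shares of all genes were 0.578% and 1.62%. The 7 were Ost4, Hspa5, Creld2, Calr, Manf, Pdia3 and Pdia4. Of these, 6 belong to the folding classes and 1 to the oligosaccharyltransferase. The median of the 46 was 0.16.

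**Figure D1:**
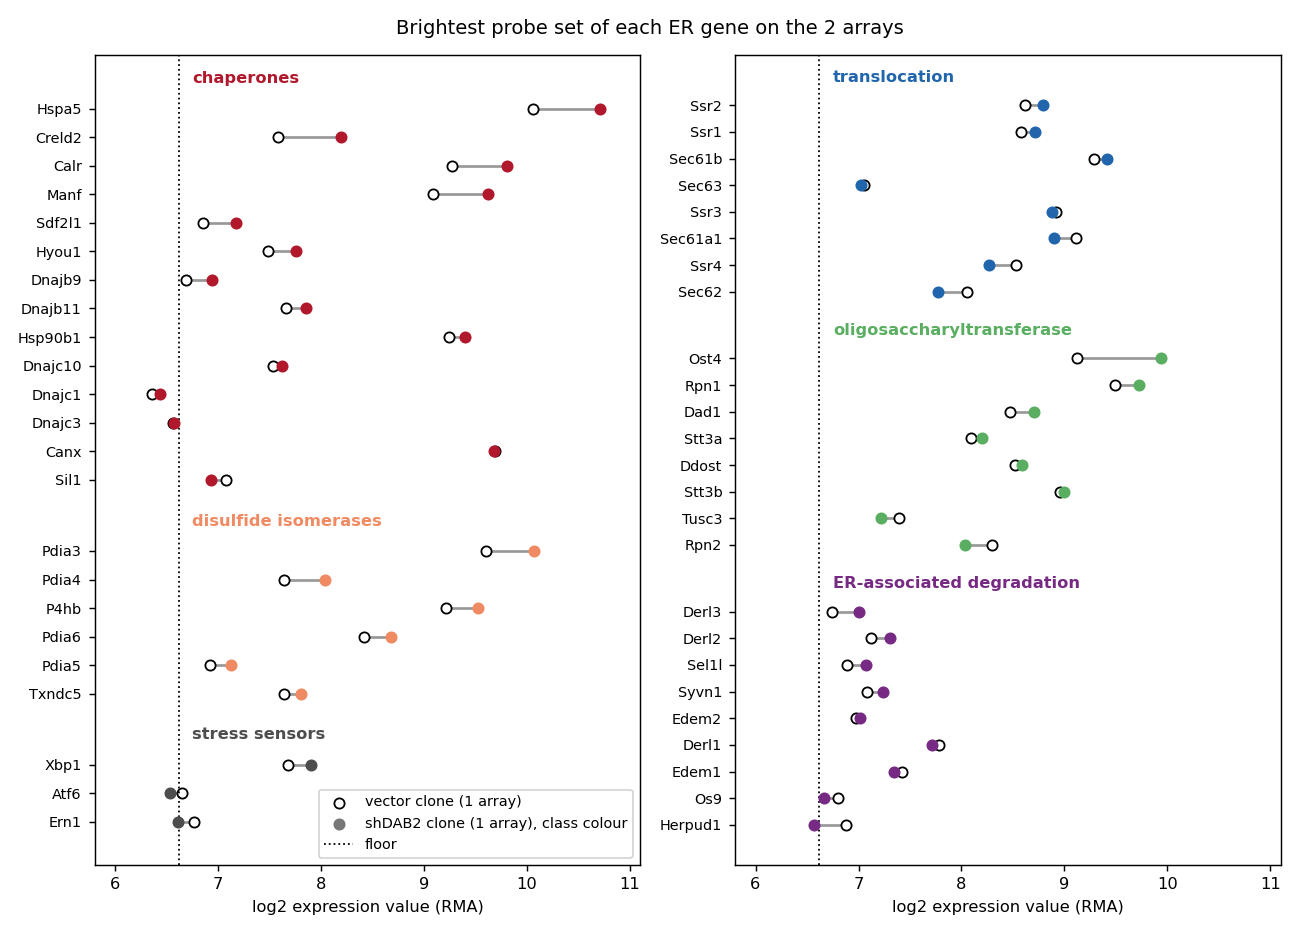
Log2 level of the brightest probe set of each of the 48 ER genes in the vector clone (open circles) and the shDAB2 clone (filled circles), 1 array each, by class; the dotted line is the floor at 6.62. Chaperone and isomerase genes mostly lie further right in the shDAB2 clone, led by Hspa5 (10.06 to 10.71), while Sec62, Ssr4 and Herpud1 lie further left.

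Chaperone genes were mostly higher in the shDAB2 clone: 10 of 12 above the floor, with a median difference of 0.26. Hspa5 encodes BiP, the ER Hsp70 that binds unfolded chains and holds the stress sensors inactive. It read 10.06 with the vector and 10.71 with the hairpin, a difference of 0.65 or 1.57-fold. Its second probe set read 8.72 and 9.31 in the same order, a difference of 0.60, so both probe sets placed the shDAB2 clone higher by a like amount. Among all 7269 genes this was the 26th highest difference. The 500 genes closest to Hspa5 in signal had differences with an SD of 0.30, so the spread at this brightness is wider than over all genes.

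Creld2 encodes an ER protein with epidermal growth factor-like repeats that is known to be induced by ER stress. It read 7.58 with the vector and 8.19 with the hairpin, 1.53-fold higher on its 1 probe set. Manf, a small ER protein that is also secreted under stress, read 9.09 and 9.63, which is 1.45-fold higher. Calr encodes calreticulin, the soluble lectin chaperone that binds glucose-trimmed glycans. It read 9.27 with the vector and 9.81 with the hairpin, likewise 1.45-fold higher. The other probe sets of Calr differed by 0.31 and 0.54. Canx, which encodes calnexin, the membrane-anchored relative of calreticulin, showed no such difference: 9.69 with the vector and 9.68 with the hairpin. Its further probe sets differed by 0.033 and 0.11. The lectin chaperones of the same glycan cycle therefore read unlike each other on these arrays.

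The partners of BiP differed less than BiP itself. Hyou1, a large Hsp70 relative that exchanges the nucleotide on BiP, read 7.48 with the vector and 7.76 with the hairpin, a difference of 0.28. Sil1, the other exchange factor, went the opposite way, from 7.08 to 6.93, a difference of -0.14 on 1 probe set. Of the J-domain co-chaperones, which deliver clients to BiP, Dnajb9 differed by 0.25, Dnajb11 by 0.20 and Dnajc10 by 0.087. Dnajc10 is also a reductase that opens disulfides before degradation. Dnajc1 and Dnajc3 differed by 0.080 and 0.0055 at levels below the floor, where RMA is known to shrink differences. Sdf2l1, a partner of Dnajb11, read 6.86 and 7.18, a difference of 0.3198 that lay just under the smaller limit. Hsp90b1, the ER Hsp90, was higher by 0.15 and, on the other probe set, by 0.14.

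The 6 listed disulfide isomerase genes were all higher in the shDAB2 clone on their brightest probe sets. These enzymes form and reshuffle the cysteine bridges of folding proteins. The 6 differences ran from 0.16 to 0.46 with a median of 0.29, or 1.22-fold. Pdia3, the isomerase that works together with calnexin and calreticulin, read 9.60 with the vector and 10.07 with the hairpin, 1.38-fold higher. P4hb, the classical protein disulfide isomerase and a subunit of collagen prolyl hydroxylase, read 9.22 and 9.52, 1.24-fold higher. Pdia4 read 7.64 and 8.03 on its brightest probe set, 1.31-fold higher, but 6.27 and 6.33 on the other, which lies below the floor. Pdia6 was 0.27 higher and Pdia5 0.20 higher. Txndc5 was uneven: its brightest probe set gave 0.16, and another of nearly the same brightness -0.027. The direction of Txndc5 is therefore uncertain. A further list, of other oxidoreductases and prolyl isomerases, was split, with 6 genes higher and 6 lower. In it Txndc12 differed by -0.23, Tmx1 by -0.14, Erp29 by -0.13 and Erp44 by 0.020. Tmx1, Erp29 and Erp44 are named here after their values were seen.

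Promoter sequences of 41 of the 50 genes were at hand, from RefSeq on mouse build GRCm38.p6, as windows from 250 bases before to 50 bases after a transcript start. The ER stress element (ERSE) is the site through which ATF6 and XBP1, together with the CCAAT-binding factor NF-Y, are known to drive chaperone genes. It was searched on both strands as CCAAT, 9 free bases and CCACG. It stood in the windows of Hspa5, Creld2 and Calr, whose sites are shown because these chaperone genes had the highest differences among those with a window, while the next in order, Sdf2l1 and Dnajb9, held none. Hspa5 had 1 exact copy, from 65 to 47 bases before the start, within chr2:34771840-34772139 on the plus strand. The CCAAT and CCACG parts are in capitals, and on the opposite strand they read CGTGG and ATTGG.
Hspa5: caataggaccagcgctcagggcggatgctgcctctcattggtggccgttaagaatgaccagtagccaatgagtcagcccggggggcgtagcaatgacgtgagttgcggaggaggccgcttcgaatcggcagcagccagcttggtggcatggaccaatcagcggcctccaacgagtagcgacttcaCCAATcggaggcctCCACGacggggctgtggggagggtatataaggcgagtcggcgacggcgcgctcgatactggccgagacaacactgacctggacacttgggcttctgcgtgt

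The sites of 4 further folding genes show how the element is placed. Creld2 (chr15:88819505-88819553, plus strand) and Calr (chr8:84847060-84847108, minus strand) hold it in reverse orientation, while Pdia6 (chr12:17266476-17266524, plus strand) and Canx (chr11:50325785-50325833, minus strand) hold it forward. Each is shown with 15 bases on either side, 5′ to 3′ along the gene.
Creld2: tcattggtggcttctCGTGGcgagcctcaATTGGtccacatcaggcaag
Calr: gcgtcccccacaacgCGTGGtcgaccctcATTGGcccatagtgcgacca
Pdia6: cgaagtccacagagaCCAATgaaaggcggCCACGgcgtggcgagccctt
Canx: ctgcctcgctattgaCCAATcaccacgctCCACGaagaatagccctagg
The Creld2 and Calr sites stand beside differences of 0.61 and 0.54. Pdia6 differed by 0.27 and Canx by -0.014 with an element of the same letters. An exact match alone therefore did not go with a fixed size of difference.

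Over all genes the element was rare in these windows. An exact ERSE stood in 37 of 27025 genes with a window, or 0.137%, and in 9 of the 41 ER genes, or 22.0%. ER genes made up 24.3% of the genes with the element. Since the element is known as a site of chaperone genes, a high share among ER genes was to be foreseen. That share is no result of the 2 arrays. Among genes above the floor with a window the shares were 0.219% of 5929 genes and 21.1% of 38 ER genes. The 9 were Hspa5, Hsp90b1, Calr, Canx, Dnajc3, Creld2, Pdia6, Syvn1 and Derl3, and Hsp90b1 held 2 copies. None stood among the 7 translocation or 7 oligosaccharyltransferase genes with a window. The CCACG part alone, which overlaps the ERSE, was common: 54.1% of genes above the floor and 81.6% of ER genes above the floor held it.

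The 8 ER genes with an ERSE that were above the floor had a median difference of 0.27, with 7 higher and 1 lower. The 30 without it had a median of 0.13, with 21 higher and 9 lower. Within the chaperone and isomerase classes the split was another one, by an ERSE or the related ERSE-II. There the 7 genes with either had a median of 0.27 and the 8 with neither had 0.28. Dnajb11, in the first group by its ERSE-II alone, differed by 0.20. The rest of that group were Hspa5 (0.65), Creld2 (0.61), Calr (0.54), Pdia6 (0.27), Hsp90b1 (0.15) and Canx (-0.014). The 8 with neither ran from 0.087 to 0.46. A median by ERSE alone was not taken within these classes. Other genes with an ERSE differed little: Acacb, Adcy3, Alg12, Pan2 and Zfp57, named because they completed this group, ran from -0.079 to 0.057. These are descriptions of 2 arrays, and a match to these letters does not show that a site is in use.

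**Figure D2:**
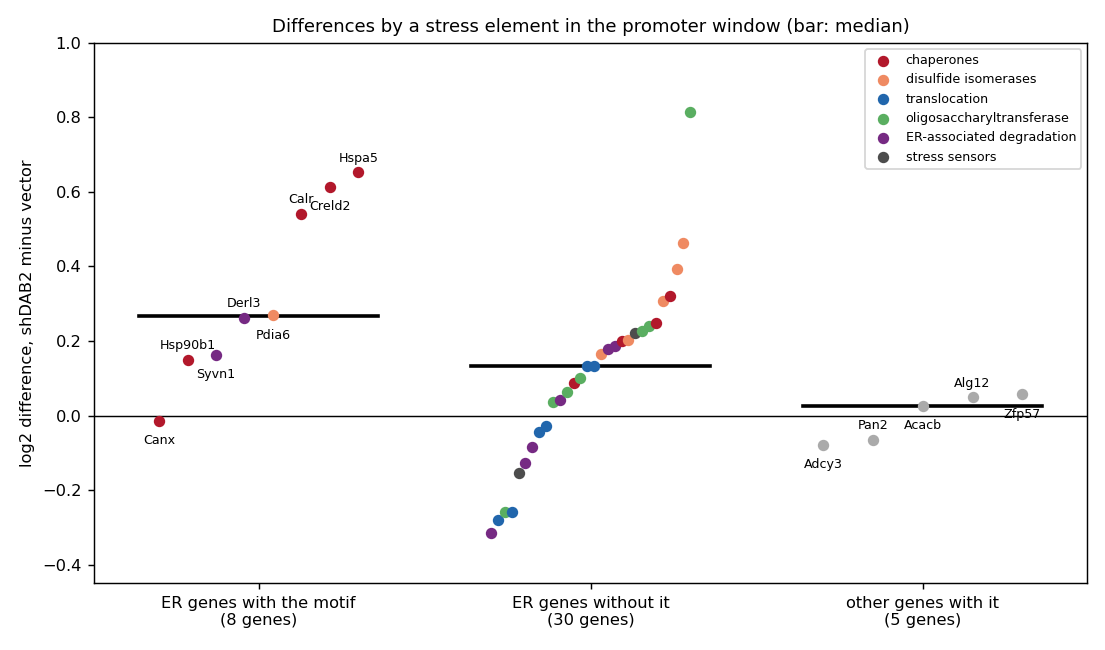
Log2 difference (shDAB2 minus vector, 1 array each) of genes above the floor whose promoter window holds an exact ERSE or not; points are genes, coloured by class, and black bars are medians. The 8 ER genes with the element have a median of 0.27, the 30 without it 0.13 and the 5 other genes with it 0.026.

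Translocation genes did not share the pattern of the folding genes. The 8 above the floor had a median of -0.037, and 3 of them were higher and 5 lower. Sec61a1, the pore subunit, read 9.11 with the vector and 8.90 with the hairpin, a difference of -0.21, but its 6 probe sets ran from -0.21 to 0.15. Sec61b, a small subunit, was 0.13 higher. Sec62, which helps import of short chains after translation, was the lowest of the class at 8.05 with the vector and 7.77 with the hairpin, 1.22-fold lower. Of its other probe sets, those at -0.27 and -0.29 pointed the same way and 1 gave 0.093. Its partner Sec63, a J-domain protein that recruits BiP to the channel, differed by -0.028.

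The signal-sequence receptor, also called the translocon-associated protein complex, assists the entry of a subset of chains. Its subunits went apart: Ssr2 differed by 0.17 and Ssr1 by 0.13, Ssr3 by -0.045 and Ssr4 by -0.26. Ssr4 read 8.53 with the vector and 8.27 with the hairpin on its brightest probe set, while its next probe set differed by only 0.018. Since most of these differences are near the probe-set SD of 0.11 or change sign between probe sets, no subunit stood out clearly. A probe set naming Sec61g together with other loci differed by 0.34 (9.67 in the vector clone, 10.01 in the shDAB2 clone). It was left out because it cannot be assigned to Sec61g.

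Oligosaccharyltransferase genes had a small median of 0.083 with 6 of 8 higher, and 1 gene stood far above the rest. Ost4 encodes a very small subunit that steadies the catalytic complex. It read 9.13 with the vector and 9.94 with the hairpin, a difference of 0.82 or 1.76-fold, the 8th highest of all 7269 genes. This rests on 1 probe set: the other read 6.33 and 6.37, below the floor, with a difference of 0.038. None of the other 7 passed the smaller limit. Rpn1, a ribophorin that presents substrates, was 0.24 higher, with its 5 probe sets between 0.021 and 0.31. Both probe sets of Dad1 were higher, by 0.23 and 0.20. Rpn2, the second ribophorin, read 8.30 with the vector and 8.04 with the hairpin, a difference of -0.26 on 1 probe set.

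The catalytic subunits differed little. Stt3a, which acts while chains enter the channel, differed by 0.10, and Stt3b, which modifies sites that were skipped, by 0.036. Tusc3, an oxidoreductase subunit of the Stt3b form, read 7.39 and 7.21, a difference of -0.18, and Ddost, a shared subunit, differed by 0.064.

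Genes of ER-associated degradation were split, with 5 of 9 higher, 4 lower and a median of 0.043. Herpud1 encodes a membrane scaffold of the degradation complex that ER stress is known to induce. It had the lowest difference of all 46 ER genes: 6.88 with the vector and 6.57 with the hairpin, -0.32 or 1.24-fold lower. Its second probe set, below the floor, differed by -0.037. The ubiquitin ligase gene Syvn1 (HRD1) was 0.16 higher and its adaptor Sel1l 0.18 higher, although the further probe sets of Sel1l ran from -0.057 to 0.081. Derlins form part of the channel back to the cytosol. Derl3 was 0.26 higher on 1 probe set (6.74 with the vector, 7.0 with the hairpin), and Derl2 was 0.19 higher on the brighter of its probe sets but -0.087 on the other. Derl1 differed by -0.065 on its brightest and by -0.29 on its second probe set. The lectin gene Os9 differed by -0.13, and the mannosidase-like genes Edem1 and Edem2 by -0.084 and 0.043.

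Stress elements were found in 3 of the 8 degradation genes with a window, and they are shown because these genes differed in opposite directions. Syvn1 (chr19:6046517-6046565, plus strand) and Derl3 (chr10:75893227-75893275, plus strand) hold an ERSE. Herpud1 (chr8:94386362-94386402, plus strand) holds an ERSE-II, searched on both strands as ATTGG, 1 free base and CCACG, which 0.0444% of all genes with a window and 4.88% of ER genes held. Like that of the ERSE, the share of ER genes with an ERSE-II is no result of the arrays. Capitals mark both parts.
Syvn1: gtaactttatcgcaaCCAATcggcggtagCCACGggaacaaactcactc
Derl3: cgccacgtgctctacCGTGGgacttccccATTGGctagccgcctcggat
Herpud1: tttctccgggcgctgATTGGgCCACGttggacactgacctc
The other ER gene with an ERSE-II was Dnajb11, 8 to 18 bases after its start, which was 0.20 higher. Herpud1 and Txndc5 also held the element TGATGNAAN, bound by ATF4 with C/EBP proteins, which stood in 4.50% of all genes with a window. Txndc5 alone among the ER genes held the core TGACGTGG of the unfolded protein response element, present in 0.714% of genes.

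The stress sensor class held 3 measured genes, of which Atf6 and Ern1 lay close to the floor and Xbp1 well above it. Xbp1, the transcription factor whose mRNA IRE1 splices, read 7.68 with the vector and 7.91 with the hairpin, a difference of 0.22. Its 4 probe sets ran from 0.11 to 0.31, all of 1 sign. Splicing of Xbp1 was not measured here. Ern1 read 6.76 and 6.61, a difference of -0.15, but its other probe sets, below the floor, gave 0.0715 and 0.036. Atf6 read 6.65 and 6.53, a difference of -0.12 close to the floor. The class median of -0.12 is that of Atf6, the middle of 3 genes: with the mean of all probe sets it was 0.038 over 2 genes.

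Set side by side, the folding classes lay above the others. The 18 chaperone and isomerase genes had a median of 0.27 with 16 higher and 2 lower, and 6 of them were higher past the smaller limit. Serpinh1, the collagen chaperone, is not among the 18 but in a further list with 6 of 12 genes higher. It differed by -0.83, and by -1.06 on its second probe set. The 28 genes of the other 4 classes had a median of 0.039 with 15 higher and 13 lower, and 1 of them was higher past that limit. Of all genes 4.91% were higher past it, so the 1 of 28 was near that share. Counted over single probe sets above the floor, 25 of 28 were higher in the folding classes, with a median of 0.23, and 33 of 59 in the others, with a median of 0.021. With 1 array per group the difference between classes was not tested. Over the 46 genes, difference and mean level had a Pearson correlation of 0.43 across genes, against 0.017 over all 7269, and the points share both arrays. The degradation and sensor classes lie lower on the signal scale than the others, with mean levels of 7.08 and 7.03 in the vector clone. There the translocation and oligosaccharyltransferase classes, at 8.52 and 8.54, lay above the chaperones and isomerases, at 8.19 and 8.24. The part of signal level in the class medians was not tested.

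**Figure D3:**
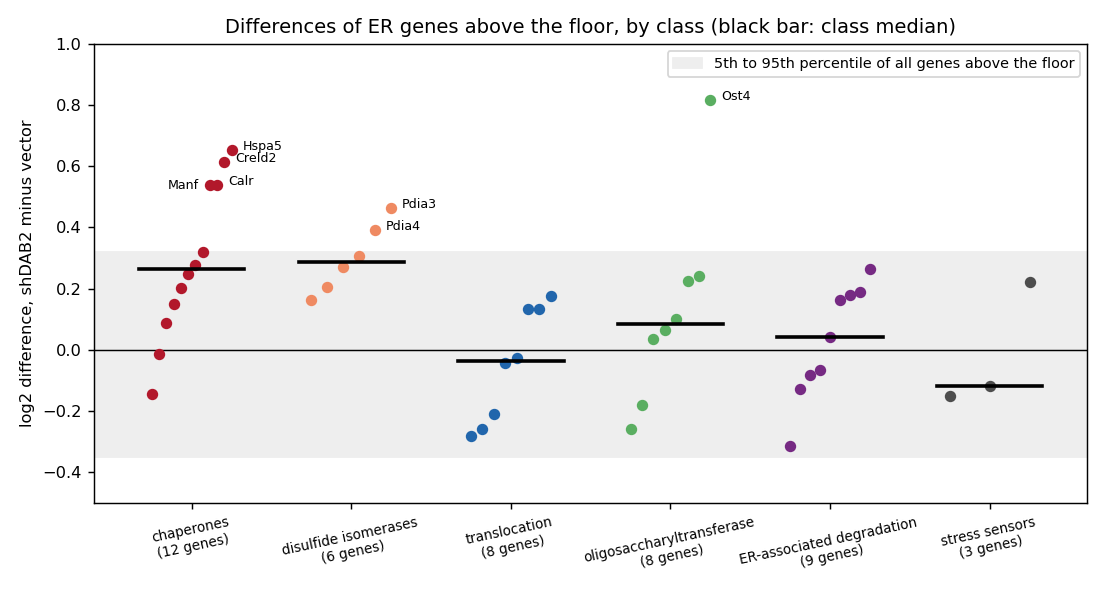
Log2 difference (shDAB2 minus vector, 1 array each) of the 46 ER genes above the floor by class; points are genes, black bars class medians, and the grey band runs from the 5th to the 95th percentile of all genes above the floor (-0.35 to 0.32). The chaperone and isomerase medians (0.26 and 0.29) lie above those of the other classes, and Ost4 stands apart in its class.

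Probe sets of 1 gene gave a check on these readings, but not on the spread between clones, cultures or arrays. Of 22 ER genes with at least 2 probe sets above the floor, 15 had the same sign on the brightest pair and 11 on all of theirs. The SD for 1 probe set among these genes was 0.10, and the largest gap between a brightest pair was 0.28. The 11 of a single sign included Hspa5 and Calr, with large differences, and also genes with small ones, such as Hsp90b1, Dnajc10, Dad1, Xbp1 and Os9. Signs were mixed for Sec62, at -0.28 on its brightest probe set, and for Sec61a1, Sec63, Sel1l and Derl2 among others. Of the 46 genes, 10 lay within the probe-set SD of 0.11 from 0.

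**Figure D4:**
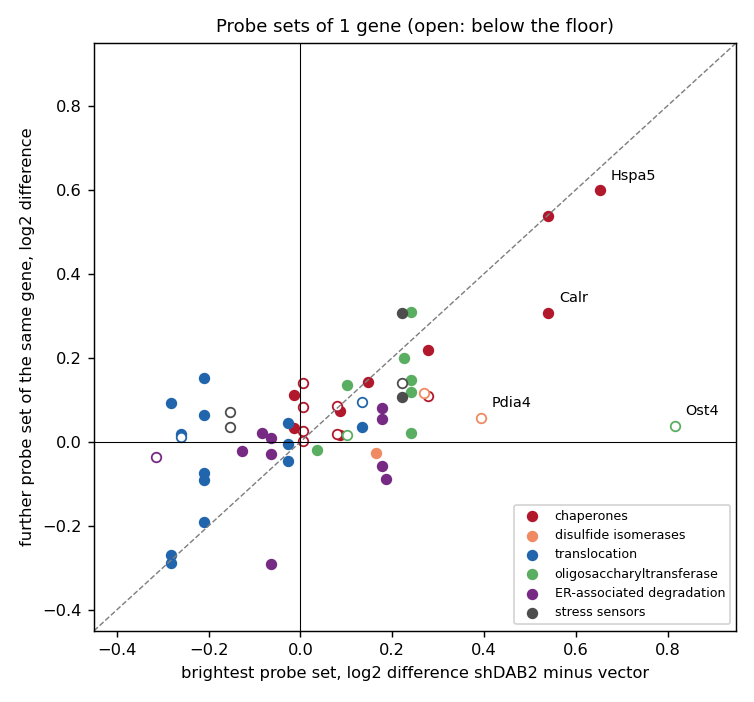
Log2 difference of each further probe set of an ER gene against that of the gene's brightest probe set; filled points lie above the floor, open points below it, and the dashed line marks equality. Hspa5 (0.65 and 0.60) lies near the line, while the second probe sets of Ost4 (0.82 and 0.038) and Pdia4 (0.39 and 0.058) are dim and near 0.

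Other genes of the ER pathway were grouped by function into further lists, which were chosen with earlier results of these data known. Signal recognition and signal peptidase genes, which act before translocation, had 8 of 12 genes higher and a median of 0.13. The medians of 5 further lists, on oxidoreductases, glycans, degradation, sensors and COPII coats, lay between -0.044 and 0.028. Other oxidoreductases and prolyl isomerases had 6 of 12 genes higher and a median of 0.0082. Within that list the prolyl isomerase Fkbp11 was 0.38 higher (0.074 on its second probe set) and the peroxiredoxin Prdx4 0.35 higher (0.069). Serpinh1, the collagen chaperone, read 8.49 with the vector and 7.66 with the hairpin, -0.83, and -1.06 on its second probe set. Txndc12 differed by -0.23. Glycan donor synthesis and trimming had 11 of 19 genes higher and a median of 0.013. Dpm1, of dolichol phosphate mannose synthesis, differed by -0.47, with 0.0086 on another probe set, Lman2 by 0.23, with 0.0055 on another, Dolpp1 by 0.20 and Dolk by -0.19. Past the smaller limit the oxidoreductase list held 2 higher genes and 1 lower gene of 12, and the glycan list 0 and 1 of 19. Of all genes 4.91% were higher and 6.07% lower past it.

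Other degradation factors had 7 of 18 genes higher and a median of -0.015. The selenoprotein gene Selenos, of the retrotranslocation complex, was 0.33 higher, with 0.064 on another probe set, Ube2j2 0.29 and Ube2g1 0.26 higher, and Marchf6 differed by -0.31. Other sensors and the factors that process them had 4 of 11 genes higher and a median of -0.044. There Creb3 differed by -0.33, Mbtps1, the protease that cleaves ATF6, by -0.22 (-0.45 on its second probe set), Atf6b by 0.083 and Wfs1 by -0.069.

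The list for the PERK and ATF4 branch, which holds Atf4 but not the gene of PERK itself, lay on the other side. Above the floor it had 12 genes, 2 of them higher and 10 lower. The median was -0.39, and 7 were lower past the smaller limit, beside 6.07% of all genes. Atf4 read 9.99 with the vector and 8.61 with the hairpin, a difference of -1.37, with -0.59 on its second probe set. Asns differed by -1.82 (-1.81 on its second), Cebpb by -0.50 (-0.33) and Chac1 by -0.66 on 1 probe set. The chaperones of cytosol and mitochondria had 12 of 24 genes higher and a median of 0.015, with Hsph1 at 0.35, Dnaja2 at 0.32, Dnajb1 at 0.31 and Trap1 at -0.31. Their second probe sets gave smaller differences, of 0.16, 0.064, 0.19 and -0.12 in that order. Over the whole list, however, the second-brightest probe sets gave a median of 0.15 (18 genes), beside 0.14 for the folding classes (7 genes). None of these contrasts between lists was tested, nor was a link of the PERK and ATF4 list to ER stress.

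**Figure D5:**
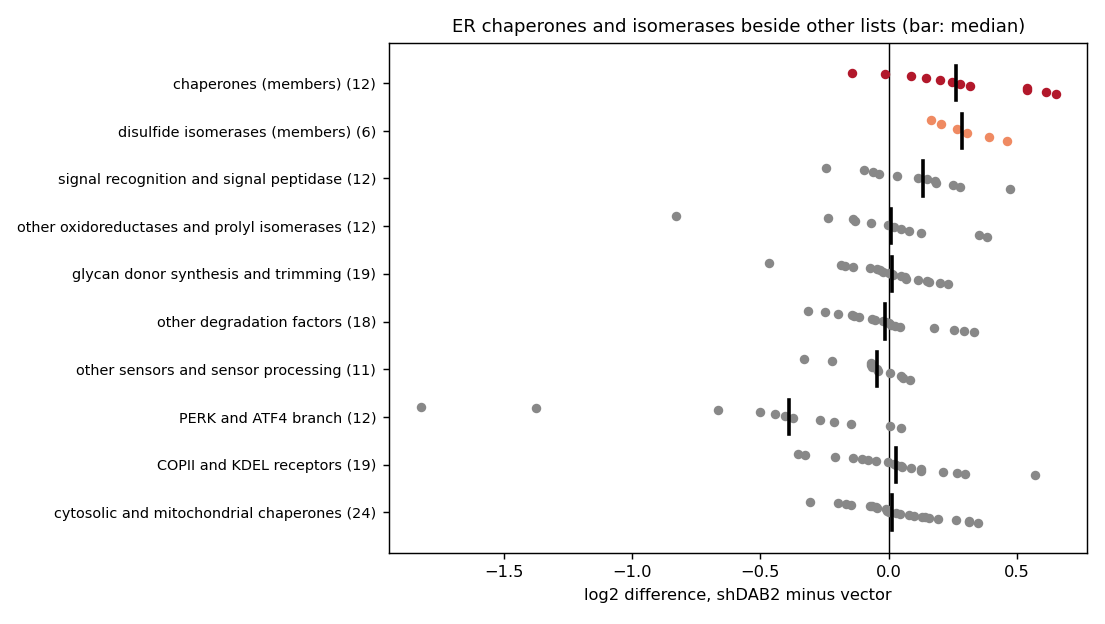
Log2 difference (shDAB2 minus vector, 1 array each) of genes above the floor in the chaperone and isomerase classes (coloured) and in further lists (grey), with the number of genes in brackets and black bars for medians. On brightest probe sets the folding classes have medians of 0.26 and 0.29, the PERK and ATF4 branch -0.39, and cytosolic and mitochondrial chaperones 0.015.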

How the data were processed

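Per the labels' protocols, total RNA was purified with Trizol and RNeasy columns, and biotinylated cRNA from 10 µg was hybridised. The authors deposited 1 log2 value per probe set and array (22626 probe sets). Per the submitters' processing notes these come from RMA, which corrects background, quantile-normalizes arrays and summarises probes; its version is not given in the sources used here, and log2 is taken because RMA writes it. The array's number limits precision: 1 per group.

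Of the probe sets, 20380 name 1 gene in the platform annotation, 20351 of them matching RefSeq GRCm38.p6 by gene ID with 0 symbols changed. Of a gene's probe sets, the one with the highest mean was used. Differences, counts at a smaller limit (1.25-fold) and a larger one (1.5-fold), medians and motif matches were computed with Python 3.11.15 (pandas 2.3.3) and tested on simulated data; limma 3.58.1 in R 4.3.3 gave cyclic loess. Genes and lists were chosen with earlier results of these data known. All listed genes may be named, up to 4 with the largest differences per further list, and others only as said. Planned protein features are not analysed here.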

Additional observations from a re-analysis of the deposited data

How the results depend on the processing

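Of 210 values of single ER genes under 5 alternatives, 184 stayed within the probe-set SD of their reported value, 26 moved further, and 0 of the differences past the smaller limit changed sign. Without probe sets ending in _s_at, _x_at or _a_at, which can match several transcripts or genes, 33 genes remained to count. Of these, 4 were higher past the smaller limit and 1 past the larger, beside 4.84% and 0.583% of all genes, and 0 were lower. Ost4 gave 0.038, its only probe set left. With the second-brightest probe set 22 genes could be counted: 1 higher past the smaller limit, 1 past the larger and 15 higher by any amount. The shares of all genes were 3.1%, 0.319% and 47.7%, so the count past the smaller limit was near its share. Medians there were 0.027 for all ER genes, 0.14 for the folding classes (7 genes), -0.027 for isomerases (1 gene), 0.31 for sensors (1 gene) and 0.020 for genes without an ERSE. That of cytosolic and mitochondrial chaperones was 0.15 (18 genes). The mean of all probe sets gave sensors 0.038, and a floor at the 75th percentile gave sensors 0.22 (1 gene), degradation -0.074 (2 genes) and genes with an ERSE 0.40. Fewer genes enter these medians than the main ones, and probe sets of 1 gene can also differ. What each contributes was not tested. Centring on the median difference put 1 gene, lower, past the smaller limit, as were 6.30% of all genes. Cyclic loess gave 8 genes higher past the smaller limit, beside 4.47% of all genes. The chaperone median ran from 0.18 to 0.28 over all settings. Without a floor the endoderm marker median was 0.018 and the trophectoderm marker median -0.028 (10 genes). On second-brightest probe sets the trophectoderm median was -0.22 (3 genes). ERSE groups and further lists were run through these alternatives after seeing the data. Leaving out an array was not possible with 1 per group, and depth here means signal: dim genes have understated differences. No paired analysis was possible because each group holds 1 array.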

Other observations

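The steps just before and just after ER folding were measured as well. Of 12 genes for signal recognition and signal peptidase above the floor, 8 were higher in the shDAB2 clone and 4 lower, with a median of 0.13. Srp19, a protein of the signal recognition particle, read 7.93 with the vector and 8.41 with the hairpin, 1.39-fold higher on 1 probe set. Srp9 was 0.28 higher (0.36 on its second probe set), the signal peptidase subunit gene Spcs3 0.25 higher, and Srp68 differed by -0.24. Particle subunits thus read in opposite directions.

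Genes of COPII coats, which carry folded proteins out of the ER, and of KDEL receptors, which return escaped chaperones, had 11 of 19 higher and a median of 0.028. Sec23b, an inner coat subunit, was the highest, at 8.11 with the vector and 8.68 with the hairpin, 1.49-fold higher on 1 probe set. Sec13, of the outer coat, was 0.30 higher. Ergic1 differed by -0.35 (-0.24 on its second probe set) and the scaffold gene Sec16a by -0.33 (-0.31 on its second).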
